A study of Homo sapiens with 22 samples.

Results

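The regions described here are the ETS1 binding regions that were listed in control TC-32 cells as well as after depletion of EWSR1::FLI1. The 4 ETS1 peak lists, 2 from siNEG and 2 from siFLI1 cells, were joined wherever intervals shared at least 1 bp, on chromosomes 1 to 22 and X, which gave 2706 regions. A region was a member when both siFLI1 lists and at least 1 siNEG list held it, and 333 of the 2706 regions (12.3%) met this rule. Members were thus chosen by their presence in the ETS1 lists, so presence and fold in these lists are given as a description, with no test. All coordinates are on hg38 and counted from 1.

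TC-32 is an established Ewing sarcoma line that carries the EWSR1::FLI1 fusion, and every library came from this line. Cells were reverse transfected with 20 nM of siRNA, either the control siNeg (siNEG) or siFLI1, against FLI1 sequence that the fusion transcript also holds, and were fixed with 1% formaldehyde for 10 min. How far the fusion was depleted was not analysed here. Each arm had 2 libraries each for ETS1, for H3K4me3, a methylation mark of promoters, and for H3K27ac, an acetylation mark of active regulatory regions. A further H3K27ac library per arm used the antibody ab4729, and the 8 input libraries among the 22 samples were not analysed here. The labels do not say whether replicates came from separate transfections. SDs and the p-values of tests over libraries thus measure only the spread between these libraries, which may be technical. The p-values of the McNemar test on sequence windows, given below, are counted over members and measure no spread between libraries.

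The estimated depth of the ETS1 libraries lay between 21.6 and 28.9 M tags (M for mega). It rests on peak-caller settings that no source states. Between the siFLI1 ETS1 replicates, summit heights varied less than sampling noise would make them vary, with a reduced chi-square of 0.411 (494 regions), where the siNEG replicates had 0.814 (80 regions), both over regions with a summed height of 50 to 500 tags. From a sum of 100 tags the arms were closer, at 0.526 (28 regions) in siFLI1 and 0.617 (16 regions) in siNEG. Peak names inside the list of siFLI1 replicate 1 also carry the number 2, so which library that list came from is in doubt. As a precaution both siFLI1 lists of ETS1 were treated as 1 sample, and the rule that a region be in both of them may be close to a rule on 1 library. Promoters of 8 of 8 Ewing sarcoma marker genes, among them CD99 and NKX2-2, had H3K4me3 and H3K27ac in every list of the replicated antibodies.

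ETS1 belongs to the ETS family of transcription factors, whose DNA-binding domain reads a GGAA core within a longer word. FLI1 supplies such a domain to the fusion, which in addition binds tandem GGAA repeats. At promoters of broadly expressed genes, ETS words lie near the transcription start site (TSS), often beside CCAAT boxes, read by NFY, and GC boxes, read by SP and KLF factors.

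The ETS word searched here was CCGGAAG or CCGGAAA on either strand. The following 30-base stretches of hg38 show it, in capitals, at the 10 highest ranked members that held it within 50 bp of the summit. They are printed because the ETS word is the 1 sequence feature tested below. Each is read 5′ to 3′ on the strand of the word.
NLK (chr17:28041571-28041600, plus strand): gcgggatttccCCGGAAGacccacaccttg
CHCT1 (chr17:60392447-60392476, minus strand): cctcaagcgccCCGGAAGtcaccacccccc
STOML2 (chr9:35103188-35103217, minus strand): ggagggagctgCCGGAAGtacatccggggg
STMP1 (chr7:135662458-135662487, plus strand): cgtggcgtgacCCGGAAGtcgacgaggggt
ZNF384 (chr12:6689357-6689386, plus strand): cttgcactcacCCGGAAGtggtgctgcagc
TSC1 (chr9:132944728-132944757, plus strand): cggcagccccgCCGGAAGgaagaggctctt
CNOT9 (chr2:218568699-218568728, minus strand): aagatttaggaCCGGAAGgacgtccgcgac
PRRC2A (chr6:31620879-31620908, minus strand): cctctcccgcgCCGGAAAagggcgtcagcg
SLC25A17 (chr22:40819376-40819405, minus strand): cgccccgcgacCCGGAAGtggttctagggc
BZW1 (chr2:200811536-200811565, minus strand): ctcctccagcaCCGGAAGtcgaagcccgag

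The 101 bases around the summits of 6 of the members with the highest ETS1 folds follow, on the plus strand of hg38 and with the summit base in capitals. They are shown for their base composition, since 5 of these 6 windows are rich in A and T and that of KMT2A is not. None of the 6 windows holds an ETS word, though the wider region does at ENSG00000290993 (2 words), RPL32 (1) and OSTC (1).
CDC40 (chr6:110180261-110180361): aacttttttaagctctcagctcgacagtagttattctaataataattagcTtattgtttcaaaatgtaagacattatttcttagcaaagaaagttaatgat
OSTC (chr4:108650430-108650530): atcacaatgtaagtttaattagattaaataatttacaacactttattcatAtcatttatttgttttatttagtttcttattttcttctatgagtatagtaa
RIOK2 (chr5:97183389-97183489): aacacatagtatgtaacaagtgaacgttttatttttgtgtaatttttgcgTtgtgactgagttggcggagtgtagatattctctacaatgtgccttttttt
RPL32 (chr3:12841639-12841739): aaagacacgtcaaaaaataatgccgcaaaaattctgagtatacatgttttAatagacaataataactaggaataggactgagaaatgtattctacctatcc
ENSG00000290993 (chr3:129399500-129399600): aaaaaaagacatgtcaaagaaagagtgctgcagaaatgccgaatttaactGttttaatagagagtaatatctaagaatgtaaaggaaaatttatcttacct
KMT2A (chr11:118436273-118436373): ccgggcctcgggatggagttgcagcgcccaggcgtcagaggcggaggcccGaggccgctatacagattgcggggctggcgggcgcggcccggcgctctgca

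Most of what control cells listed was also listed after depletion. Members held 273 of the 302 peaks of siNEG replicate 1 (90.4%) and 191 of the 208 peaks of siNEG replicate 2 (91.8%), but 20.4% of the 1633 peaks of siFLI1 replicate 1 and 13.2% of the 2635 peaks of siFLI1 replicate 2. Of the 333 members, 126 (4.66% of all 2706 regions) were in all 4 lists, 144 were in siNEG replicate 1 and not in siNEG replicate 2, and 63 were in siNEG replicate 2 and not in siNEG replicate 1. A further 1190 regions were in both siFLI1 lists and no siNEG list, and 41 were in a siNEG list but not in both siFLI1 lists. Without siNEG replicate 1 the rule found 189 members, and without siNEG replicate 2 it found 270. With the 208 strongest peaks of every list it found 105 members, of which 61 were in all 4 lists.

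**Figure D1:**
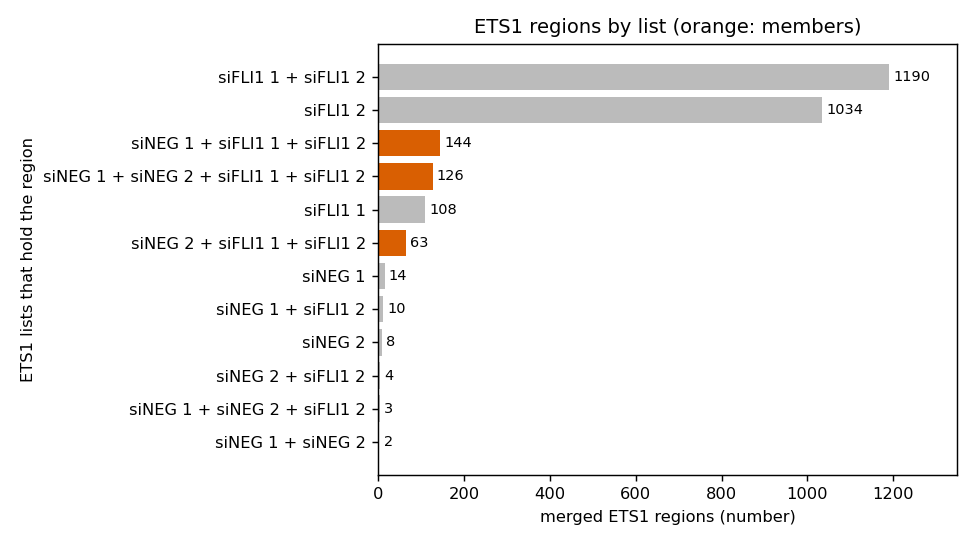
Number of merged ETS1 regions (horizontal axis) for each combination of lists that held them (vertical axis), with the 3 combinations that make a member in orange. Members make up the bars of 144, 126 and 63 regions, next to 1190 regions held by both siFLI1 lists alone.

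Members ranked high in the siFLI1 lists, with a median percentile by fold of 84.9 and 90.4, and near the middle of the siNEG lists, of which they make up most peaks, with 52.6 and 51.0. Of the 100 strongest peaks per list, 98 lay in members in siNEG replicate 1, 92 in siNEG replicate 2, 83 in siFLI1 replicate 1 and 82 in siFLI1 replicate 2. The authors' fold of a peak over its local background had a median at members of 7.43 in siNEG replicate 1 and 8.08 in siNEG replicate 2, and of 8.76 and 11.5 in the siFLI1 lists. Folds and ranks are each list's own values, so a difference between arms in them, at single members too, does not measure a change in binding. The tags behind them were few, with a median summit height of 24 tags (range 14 to 162) in siNEG replicate 1 and 23 tags (13 to 132) in siNEG replicate 2. Summits of the same member lay a median of 28.5 to 46 bp apart between a siNEG and a siFLI1 list. The Spearman correlation of log2 fold across members was 0.52 between the siNEG lists (126 members) and 0.80 between the siFLI1 lists (333 members), and 0.30 to 0.45 across arms. Lists share the annotation, the base composition and the peak caller, and members are not independent replicates, so these are descriptions.

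Members of all 4 lists had higher folds than those of 3 lists, which the rule itself makes likely. In siNEG replicate 1 the median fold was 9.19 at the 126 members of all 4 lists and 6.82 at the 144 that siNEG replicate 2 did not list. In siNEG replicate 2 it was 8.71 at the same 126 members and 6.74 at the 63 that siNEG replicate 1 did not list. Regions of all 4 lists were also wider, with a median width of 588.5 bp against 478 bp for members of 3 lists and 402 bp for regions of the siFLI1 lists alone.

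The member with the highest mean rank lay at CDCA7, whose product is a partner of the chromatin remodeller HELLS. Its region (chr2:173354429-173355007) had its summit at -109 bp from the TSS, where a minus sign means upstream. The authors' fold there was 51.3 in siNEG replicate 1, 36.2 in siNEG replicate 2, 29.2 in siFLI1 replicate 1 and 63.1 in siFLI1 replicate 2. Values of the arms overlapped, and in siNEG replicate 1 this was the highest fold of any member. The next region (chr1:228486609-228487509) lay -191 bp from the TSS of RNF187, which encodes a RING finger protein, and -71 bp from that of the unclassified transcript ENSG00000279306. Its fold was 38.3 and 43.3 in the siNEG lists and 53.1 and 76.1 in the siFLI1 lists, the highest fold of any member in those lists except siNEG replicate 1.

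KMT2A (chr11:118435938-118436595), a methyltransferase for H3K4, had folds of 32.3 and 35.0 in the siNEG lists and 25.7 and 33.7 in the siFLI1 lists. TAF6 (chr7:100119114-100119697), a subunit of the general factor TFIID, had 38.9 and 29.2 in siNEG and 27.4 and 24.6 in siFLI1. At TAF6 both siNEG values were above both siFLI1 values, which was also so at RIOK2 (chr5:97183221-97183679), a kinase of small ribosomal subunit maturation, with 25.7 and 28.0 against 14.1 and 15.6. ARID5B, a DNA-binding ARID protein, had 25.1 and 23.5 in siNEG and 19.4 and 27.7 in siFLI1, with overlapping arms. SP2, a factor of the SP family, had 22.1 and 22.7 in siNEG and 23.0 and 31.0 in siFLI1, so that both siFLI1 values were above both siNEG values there.

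CDC40, a splicing factor, had folds of 24.7 and 23.0 in siNEG and 21.6 and 40.0 in siFLI1. HNRNPL, an RNA-binding regulator of splicing, had 18.8 and 16.5 in siNEG and 16.0 and 25.3 in siFLI1. OSTC, a subunit of the oligosaccharyltransferase complex, had 16.8 and 22.3 in siNEG and 19.4 and 28.1 in siFLI1. At each of these 3 genes the siFLI1 values lay on both sides of at least 1 siNEG value.

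RPL32 (chr3:12841492-12841892), which encodes a protein of the large ribosomal subunit, and the lncRNA ENSG00000290993 (chr3:129399220-129399760) shared sequence. The 300 bp around their summits aligned over 292 columns with 79.8% identity. Fold at RPL32 was 20.8 and 34.6 in siNEG and 22.1 and 36.4 in siFLI1, and at ENSG00000290993 it was 30.7 and 36.1 in siNEG and 22.8 and 34.6 in siFLI1. How the authors treated reads that match both copies is not given in the sources used here, so the 2 regions are uncertain as separate sites. The remaining leading members lay away from promoters, at LINC01563 (chr17:21099049-21099445, intergenic) and in an intron of DNAJC5B (chr8:66064070-66064444).

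**Figure D2:**
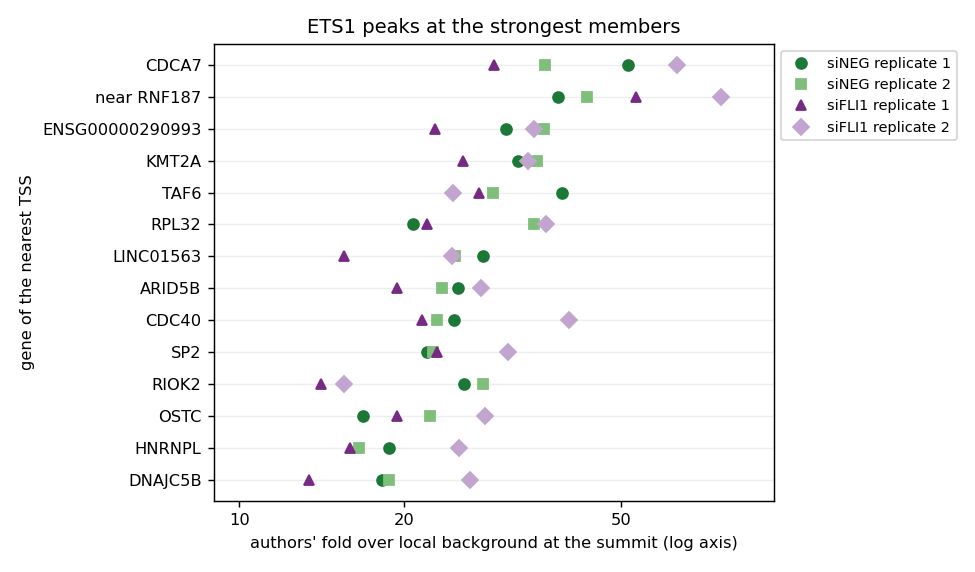
The authors' fold over local background (horizontal axis, log scale) at 14 of the 15 highest ranked members in all 4 lists (vertical axis, gene of the nearest TSS), with 1 symbol for each library. Symbols of the arms interleave at 9 of these 14 genes. At TAF6, RIOK2 and LINC01563 both siNEG symbols lie right of both siFLI1 symbols, while at SP2 and near RNF187 they lie left of them.

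The strongest members had lower GC content than the rest, with overlap between them. The 101 bp at the summit had a median GC content of 41.6% (range 17.8% to 76.2%) at the 15 strongest members and of 71.3% over all 333, against 65.3% in windows at the same distance from 21548 coding TSSs. The median was 67.8% over the 60 strongest and 72.3% over the other 273. GC content was under 50% at 10 of the 15 strongest, at 16 of those 273, at 21 of the 126 members in all 4 lists (16.7%, exact 95% binomial interval 10.6% to 24.3%) and at 6 of the 207 members in 3 lists (2.90%, 1.07% to 6.20%). It was under 50% at 34 of the 1190 regions of the siFLI1 lists alone (2.86%, 1.99% to 3.97%). These intervals cover counting error over regions only. The lowest value was that of OSTC, printed above, with 17.8%, followed by CDC40 with 25.7%, ENSG00000290993 with 28.7% and RPL32 with 30.7%. KMT2A and HNRNPL, also among the 15, had 75.2% and 76.2%. Across members, the Spearman correlation of fold with GC content was -0.46 in siNEG replicate 2 (189 members) and -0.28 in siNEG replicate 1 (270 members), and -0.06 and -0.13 in the siFLI1 lists (333 members). Of the 27 members under 50% GC, 21 lay at promoters, 22 had H3K27ac in all 4 lists and 1 had an ETS word at the summit.

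**Figure D3:**
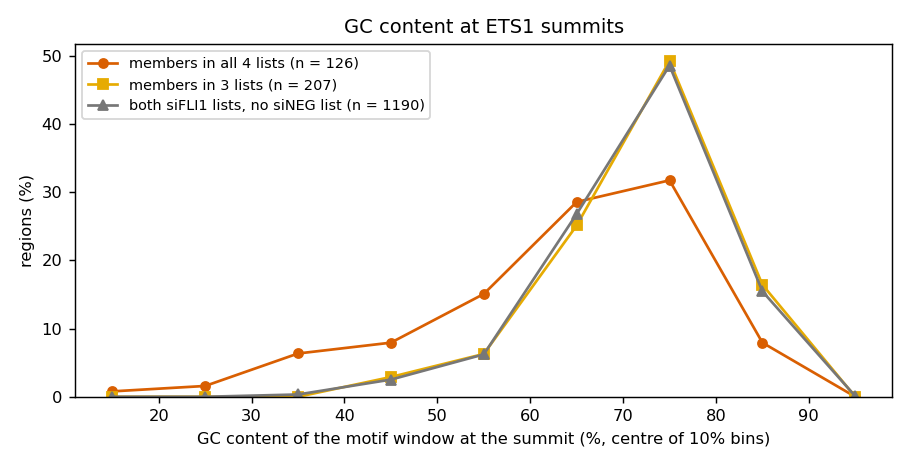
Share of regions (vertical axis, %) by GC content of the 101 bp at the summit (horizontal axis, bins of 10%), for members in all 4 lists, members in 3 lists and regions of the siFLI1 lists alone. Members in all 4 lists spread below 50% GC, while the curves of the other groups lie close to each other.

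Nearly all members were promoter regions. The summit lay within 1 kb of a TSS at 310 of 333 members (93.1%, exact 95% binomial interval 89.8% to 95.6%) and at 91.0% (89.2% to 92.6%) of the 1190 regions of the siFLI1 lists alone. It lay within 250 bp of a TSS at 82.0% of members, and the median position of promoter summits was -58 bp. Of the members, 69.7% (64.4% to 74.6%) had the summit upstream of the nearest TSS, against 61.9% (59.1% to 64.7%) of the regions of the siFLI1 lists alone. The nearest TSS was that of a coding gene at 280 members and of a lncRNA gene at 49. A divergent pair of coding genes had both TSSs within 1 kb at 52 members (15.6%) and at 12.3% of the regions of the siFLI1 lists alone. The other 23 members had their summit in an intron (12), in an exon (1) or between genes (10).

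Members away from TSSs were led by LINC01563, with folds of 27.9 and 24.8 in siNEG, both above the 15.5 and 24.5 in siFLI1, and by DNAJC5B, with 18.2 and 18.8 in siNEG and 13.4 and 26.5 in siFLI1. LINC01563 had H3K4me3 and H3K27ac in all 4 lists of each mark, whereas DNAJC5B had H3K27ac in all 4 lists and H3K4me3 in none. An intronic member in DOCK9 (chr13:98821254-98821617), which encodes an activator of the GTPase CDC42, was in all 4 ETS1 lists and had neither mark. Its folds were 11.0 and 6.36 in siNEG and 10.1 and 15.9 in siFLI1. An intronic member in IKZF1 (chr7:50332978-50333288), the gene of the lymphoid factor Ikaros, had folds of 5.77 and 11.4 in siNEG and 7.29 and 11.7 in siFLI1. Of these 23 members, 12 had H3K4me3 in all 4 lists, 16 had H3K27ac in all 4 lists and 3 had neither mark in any list.

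The ETS word lay within 50 bp of the summit at 28 of 333 members (8.41%, exact 95% binomial interval 5.66% to 11.9%). It lay in 1.80% of windows centred 500 bp before the summit and in 1.50% of those 500 bp after it. In pairs of windows from 1 member, 28 held the word only at the summit and 6 only before it, and 28 only at the summit and 5 only after it (exact McNemar test, two-sided, larger p of both sides = 0.000195). Over the alternatives this p ranged from 7.07e-06, with windows of 100 bp to each side, to 0.406, with the GGAA core alone. Without siNEG replicate 1 the share at the summit was 5.82% of 189 members and the test missed the threshold (exact McNemar test, p = 0.118). The word lay near 17 of the 144 summits in siNEG replicate 1 and not in siNEG replicate 2 (11.8%, 7.03% to 18.2%, flanks 1.39%). It lay near 2 of the 63 in siNEG replicate 2 and not in siNEG replicate 1 (3.17%, 0.387% to 11.0%, flanks 2.38%). Members in all 4 lists had it at 9 of 126 summits (7.14%, flanks 1.59%). Flanking windows lie farther from TSSs, and all coding promoters at the same distance from the TSS held the word in 8.67% of 21548 windows (8.30% to 9.05%), which is within the interval of the members. The share was 7.82% (6.35% to 9.49%) in the regions of the siFLI1 lists alone.

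Of the 28 members with an ETS word near the summit, 9 were in all 4 lists, 27 lay at promoters and 27 had H3K4me3 in all 4 lists. The highest ranked was NLK (chr17:28041340-28041753), a kinase of the WNT pathway, with folds of 12.0 and 13.8 in siNEG and 10.5 and 15.1 in siFLI1. At TSC1 (chr9:132944480-132945040), an inhibitor of mTORC1, the word lay -3 bp from the summit, and the folds were 9.18 and 13.9 in siNEG and 7.07 and 9.69 in siFLI1. ZNF384 (chr12:6688781-6689723), a zinc finger factor, had 5 ETS words in its region, and its folds were 8.64 and 8.85 in siNEG and 16.0 and 21.6 in siFLI1. CNOT9, a subunit of the CCR4-NOT deadenylase complex, was in all 4 lists as well, with folds of 6.53 and 11.9 in siNEG and 10.9 and 14.3 in siFLI1. STOML2, STMP1, CHCT1, PRRC2A and SLC25A17 were in siNEG replicate 1 and not in siNEG replicate 2, and BZW1 was in siNEG replicate 2 only. Anywhere in the region, 96 members (28.8%, 24.0% to 34.0%) held an ETS word, against 23.8% (21.4% to 26.3%) of the narrower regions of the siFLI1 lists alone.

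The GGAA core alone was present within 50 bp of the summit at 67.6% of members, at 62.5% of the flanking windows and at 66.0% of coding promoters. A run of at least 4 GGAA units, the kind of repeat that the fusion is known to bind, lay within 50 bp of 0 of 333 summits, which allows a share of up to 0.901% (3 counts of 333, with an exact 95% binomial upper limit of 1.10%), and within 1 kb of 1. Such runs were as rare elsewhere, near 0 of the 1190 summits of the siFLI1 lists alone, in 0 of 666 flanking windows and in 2 of 21548 coding promoters, so the count of 0 is not particular to the members. None of the 15 strongest members held an ETS word within 50 bp, 4 of the 60 strongest did, and 24 of the other 273 did. Anywhere in the region, 5 of the 15, 19 of the 60 and 77 of the other 273 held one, so the strongest members had no shortfall on that count. A missing match says only that these letters are not in this window.

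The CCAAT box and the GC box, both shorter words than the ETS word, were more common than it at member summits, and the other promoter words searched were rarer, apart from the GGAA core. CCAAT, the NFY box, lay within 50 bp of the summit, on either strand, at 82 members (24.6%, 20.1% to 29.6%), at 10.1% of flanking windows, at 15.2% (13.2% to 17.4%) of the regions of the siFLI1 lists alone and at 20.5% (19.9% to 21.0%) of coding promoters. The interval of the members lay above that of the regions of the siFLI1 lists alone and overlapped that of all coding promoters, and no test over libraries is possible for a sequence count. GGGCGG, the GC box, lay near 168 summits (50.5%), in 25.4% of flanking windows, in 53.5% of the regions of the siFLI1 lists alone and in 40.8% of coding promoters. It was less frequent among members of all 4 lists, at 38.1% (29.6% to 47.2%), than among those of 3 lists, at 58.0% (50.9% to 64.8%), which had the higher GC content. The word GCGCANGC, read by NRF1, lay near 2.40% (1.04% to 4.68%) of member summits, below its share of 8.03% in coding promoters, and TATAAA lay near 0.601%. One or more of the ETS word, CCAAT and GGGCGG lay near 223 summits (67.0%), and 110 had none of the 3.

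SP2, HNRNPL, HMGN1 and HNRNPUL1 were among the 5 highest ranked members with CCAAT, the other being DNAJC5B. Boxes of those 4 are shown in capitals in the following 30 bases of hg38, because the intervals of the shares with this box did not overlap between members and the regions of the siFLI1 lists alone. SP2 held a pair of boxes, -33 and 20 bp from the summit, and both are given. At HNRNPUL1 a single palindromic stretch matched on both strands, and it is given once.
SP2 (chr17:47896020-47896049, minus strand): accaaccgaaagCCAATtgaataatgagtg
SP2 (chr17:47896073-47896102, minus strand): acgttgatttgaCCAATaggtctgtgcaat
HNRNPL (chr19:38849986-38850015, minus strand): cgtgtccctcccCCAATgagaggcgggggg
HMGN1 (chr21:39349169-39349198, minus strand): tgagtcccgtagCCAATgggcgggggtggg
HNRNPUL1 (chr19:41264297-41264326, plus strand): cccacgcactgaCCAATtggcactcatgta

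**Figure D4:**
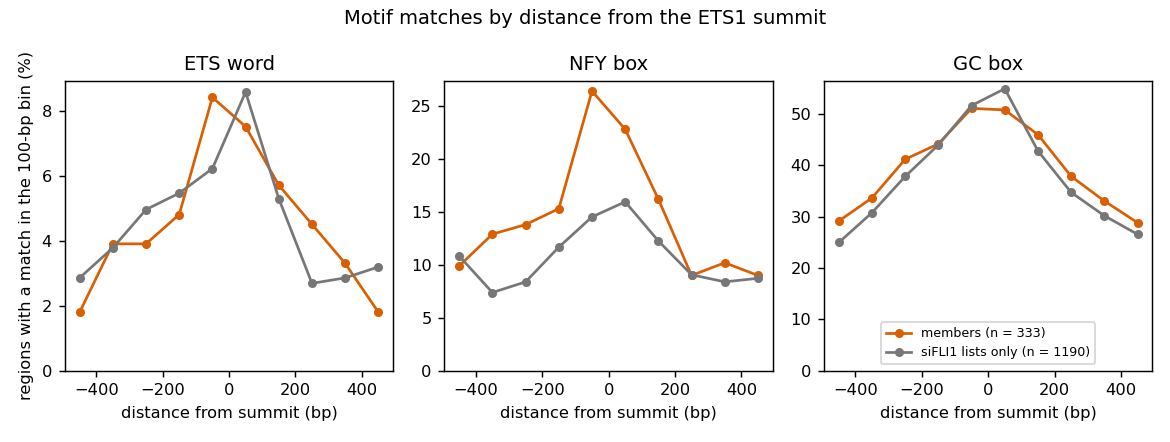
Share of regions with a match (vertical axis, %) in bins of 100 bp by distance from the summit (horizontal axis, bp, along the plus strand), in panels for the ETS word, the NFY box (CCAAT) and the GC box (GGGCGG), for members and for regions of the siFLI1 lists alone. All 3 panels peak at the summit in both groups, and in the NFY panel the highest bin is 26.4% for members and 16.0% for the other regions.

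The histone marks of members were those of active promoters in both arms. H3K4me3 overlapped 94.9% and 94.6% of members in the siNEG lists and 95.8% and 95.2% in the siFLI1 lists, a mean of 94.7% ± 0.212 (SD, n = 2) and 95.5% ± 0.425 (SD, n = 2). The difference, siFLI1 minus siNEG, was 0.751 percentage points (two-sided p = 0.33 by an exact permutation of libraries, and no lower p can come from 2 against 2). H3K27ac overlapped 86.2% and 81.1% of members in siNEG and 88.6% and 87.4% in siFLI1, a mean of 83.6% ± 3.61 (SD, n = 2) and 88.0% ± 0.849 (SD, n = 2). That difference was 4.35 percentage points, again with p = 0.33 by exact permutation, and it was 1.80 without siNEG replicate 2 and 6.91 without siNEG replicate 1. The ab4729 libraries, 1 per arm, overlapped 76.6% of members in siNEG and 84.4% in siFLI1. The siFLI1 list of ab4729 was longer, with 51663 peaks against 32738.

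The same libraries gave close values at the 1190 regions of the siFLI1 lists alone, with 81.5% ± 4.04 (SD, n = 2) in siNEG and 87.4% ± 0.772 (SD, n = 2) in siFLI1 for H3K27ac. Whether the difference between arms differs between these region groups was not tested. Within each list the marks at members were strong. The highest H3K4me3 peak at a member had a median percentile of 80.2 to 82.1 by fold within its list, and the highest H3K27ac peak one of 90.2 to 92.4. H3K4me3 peaks at members were wide, with a median of 3842 to 4209 bp where the lists' medians were 1716 to 2028 bp. The regions of the siFLI1 lists alone were close to this, with median widths of 3799 to 4169.5 bp and median percentiles of 75.9 to 77.9 for H3K4me3. The ETS1 summit itself lay inside an H3K4me3 interval at 88.9% of members in both arms, and inside an H3K27ac interval at 59.6% ± 7.86 (SD, n = 2) in siNEG and 64.1% ± 2.34 (SD, n = 2) in siFLI1.

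**Figure D5:**
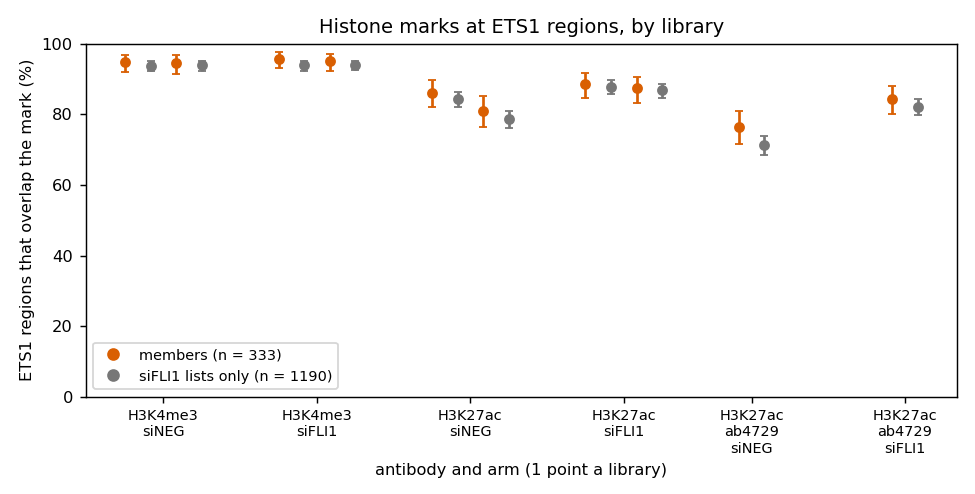
Share of ETS1 regions that overlap a peak of the mark (vertical axis, %) for each histone library (horizontal axis, by antibody and arm), with exact 95% binomial intervals over regions, for members and for regions of the siFLI1 lists alone. H3K4me3 sits near 95% for members in every library, and siNEG replicate 2 has the lowest H3K27ac share of the replicated libraries at 81.1%.

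All 8 replicated histone lists held 255 of the 333 members (76.6%) and 850 of the 1190 regions of the siFLI1 lists alone (71.4%). H3K4me3 was in no list at 13 members and H3K27ac in no list at 27, and 4 members had neither. H3K4me3 in all 4 lists without H3K27ac in any was seen at 22 members, all at promoters, and the ab4729 lists held 2 of them in siNEG and 5 in siFLI1. By merged histone regions, 282 members (84.7%) overlapped an H3K27ac region of all 4 lists, a class that holds 25.1% of the 90572 merged H3K27ac regions. For H3K4me3, 316 members (94.9%) overlapped a region of all 4 lists, against 62.6% of 20727 merged regions. These merged regions include many away from promoters. The regions of the siFLI1 lists alone had shares close to those of the members, 81.8% for H3K27ac and 93.9% for H3K4me3.

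Few members overlapped a region whose histone listing differed between arms. An H3K27ac region in both siFLI1 lists and no siNEG list overlapped 8 members (2.40%), and 8.19% of merged H3K27ac regions, promoters or not, were of that kind. One in both siNEG lists and no siFLI1 list overlapped 1 member (0.300%, background 4.86%). The regions of the siFLI1 lists alone had nearly the same shares, 29 of 1190 (2.44%) and 4 of 1190 (0.336%). The 8 members lay at ZSWIM4, FTO, SAMD4A, CYLD, SIX2, RRAGC-DT, SLC30A1 and PIM1. The ab4729 lists, which took no part in that call, held 7 of these 8 members in siFLI1 and 2 in siNEG. Over all 333 members they held 84.4% in siFLI1, so the 7 of 8 is near the general share, and 76.6% in siNEG. Each is 1 library, and the siFLI1 list is the longer. At FTO, an RNA demethylase gene, no siNEG list held the member and siFLI1 replicate 1 did, with an H3K27ac fold of 4.16. The peak of siFLI1 replicate 2 lay elsewhere in the merged region and not at the member. The siFLI1 ab4729 list held the member, with a fold of 7.65. At CYLD, the gene of a deubiquitinase, the H3K27ac folds were 4.80 and 3.10 in the siFLI1 lists and 5.57 in the siFLI1 ab4729 list, with no peak in any siNEG list. At SIX2, a homeobox gene, they were 4.46 and 5.50 and 5.57, again with no siNEG peak. At PIM1 all 4 replicated lists also held H3K27ac at the member, since another merged region overlapped it. RRAGC-DT too overlapped an H3K27ac region of all 4 lists and had a peak in siNEG replicate 2, with a fold of 3.49, and ZSWIM4 was held by the siNEG ab4729 list, with a fold of 8.23.

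The single member with a lost H3K27ac region lay -1055 bp from SMAD6, an inhibitor of BMP signalling, and it also overlapped an H3K27ac region of all 4 lists. No member overlapped an H3K4me3 region of both siFLI1 lists and no siNEG list (0 of 333, which allows up to 0.901%, or 1.10% by the exact 95% binomial limit, background 2.17%), and 1 overlapped one of both siNEG lists and no siFLI1 list (background 2.83%), at SLC25A42, which encodes a mitochondrial carrier. That member overlapped an H3K4me3 region of all 4 lists as well.

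Members lay within 1 kb of a TSS of 352 of 19962 coding genes (1.76%). Among the 12584 coding genes with H3K4me3 in all 4 lists at a TSS, the share was 2.78%. The gene groups below were read against these shares, with no test. For cytosolic ribosomal protein genes, 3 of 87 had a member, which were RPL32, RPL6 and RPS26. RPS26 (chr12:56041630-56042322), of the small ribosomal subunit, was in all 4 lists, with folds of 8.84 and 9.58 in siNEG and 8.26 and 12.2 in siFLI1. The member at RPL6 (chr12:112418683-112419156) lay nearer to the TSS of PTPN11, a phosphatase gene, with folds of 6.33 and 9.62 in siNEG and 12.9 and 18.3 in siFLI1.

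Mitochondrial genes gave 2 of 78 ribosomal protein genes (MRPS28 and MRPS34) and 1 of 84 genes of the respiratory chain and ATP synthase. The latter was ATP5F1A, the alpha subunit of ATP synthase, in all 4 lists with folds of 9.37 and 12.3 in siNEG and 8.13 and 12.6 in siFLI1. Spliceosome genes had a member at 2 of 67 (2.99%), and HNRNP genes at 2 of 26 (HNRNPL and HNRNPUL1). HNRNPUL1 (chr19:41263902-41264721) was in all 4 lists, with folds of 11.7 and 11.9 in siNEG and 20.3 and 24.5 in siFLI1. Regions of the siFLI1 lists alone lay at 1184 of 19962 coding genes (5.93%), and at 7 of the 26 HNRNP genes.

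Groups of 55 translation initiation factor genes, 39 proteasome genes, 31 RNA polymerase subunit genes and 69 clustered histone genes had 0 members each. The zinc finger genes named ZNF had members at 10 of 508 (1.97%), among them ZNF384, ZNF687 and ZNF335. TAF6 was the 1 gene among 68 of general transcription factors, TAFs and Mediator, MCM7 the 1 of 22 replication origin genes, MSH6 the 1 of 29 DNA repair genes and CARS2 the 1 of 35 aminoacyl-tRNA synthetase genes. MCM7 (chr7:100100358-100100897), a subunit of the replicative helicase, was not in siNEG replicate 2 and had folds of 6.16 in siNEG replicate 1 and 8.12 and 11.4 in siFLI1.

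Of 27 ETS family genes, 1 had a member and 4 had a region of the siFLI1 lists alone, against 5.93% of all coding genes for the latter. The member lay at ERF (chr19:42253626-42254561), which encodes an ETS repressor, with its summit at -116 bp and 83.2% GC there. Its folds were 8.27 and 6.60 in siNEG and 10.3 and 13.4 in siFLI1, and the medians over all members were also higher in the siFLI1 lists. Among genes that the fusion is known to raise 0 of 12 had a member within 1 kb of a TSS, among genes it is known to lower 0 of 10, and among the Ewing sarcoma markers 0 of 8. Most of the markers are also on the list of raised genes, and 12 of 12, 8 of 10 and 8 of 8 of them had H3K4me3 in all 4 lists.

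Among the widest members were those at KAT6B, a histone acetyltransferase gene (1574 bp), at the lncRNA ENSG00000242880 (1357 bp), at SYNCRIP, the gene of an RNA-binding protein (1271 bp), and at SIN3A, a corepressor scaffold gene (1227 bp). KAT6B had folds of 6.18 and 7.70 in siNEG and 8.89 and 12.6 in siFLI1. Its folds lay below the member medians of 7.43 and 8.08 in siNEG and above those of 8.76 and 11.5 in siFLI1.

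At the edge of the rule, the members with the lowest siNEG evidence were ENSG00000286428 (−log10 q of 2.26), ANKRD13B (2.44) and JARID2 (2.55), each in siNEG replicate 2 only. JARID2, a cofactor of the PRC2 repressor complex, had a fold of 3.59 in siNEG replicate 2 and of 11.1 and 13.6 in the siFLI1 lists. Just outside were DNMT3B, a DNA methyltransferase gene, with 12.4 and 17.7 in the siFLI1 lists and no siNEG peak, PRR12 with 13.8 and 16.3, and BCL2L2 with 11.6 and 16.6. CDCA2 was in both siNEG lists, with 8.41 and 10.4, and in siFLI1 replicate 2, with 9.42, but not in siFLI1 replicate 1. MOB3A, with 5.94 and 6.20, and ENSG00000285590, with 9.18 and 8.85, were in both siNEG lists and in no siFLI1 list.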

How the data were processed

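ChIP-seq peak lists of TC-32 cells were used, 1 list per library and none pooled. Per the submitters' processing notes, the tools were cutadapt 4.4, BWA 0.7.17, Picard 2.17.11 and MACS2 2.1.1, and the builds named include hg38. Peak-calling settings and control libraries are not given in the sources used here. In the deposited lists the fold column is a ratio of summit to local background, computed by the authors. P-values and q-values stand in the deposited lists as −log10. The authors also deposited a score and a summit offset for each peak, and the score was not used.

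Lists were merged at 1 bp of overlap. TSSs came from GENCODE release 44. A promoter summit lay within 1 kb of a TSS, and the summit was that of the stronger siFLI1 peak by percentile of fold. Members were ranked by the mean percentile of fold over the lists that held them. The rule on named genes took the 15 highest ranked members of all 4 lists, up to 10 away from TSSs, up to 10 with an ETS word, up to 5 per gene list and per kind of changed histone region, those at the edge of the rule and the 5 widest. HMGN1, CAMKMT, AXIN2, RRAGC-DT, SLC30A1 and PIM1 fall outside it and were named after their values were seen. Some results at genes that the rule takes in are not reported here. Motifs were searched on both strands in 101-bp windows. Shares carry exact 95% binomial (Clopper-Pearson) intervals. Tests were the exact McNemar test and the exact permutation test over libraries. Members and gene lists were chosen with earlier results of these data known. Tag heights were recovered under MACS2's formulas, with a scale per list, and gave whole tags (−log10 p within 0.15%) at 100% of peaks in the 4 ETS1 lists. Depths assume a genome of 2.7 Gb and a fragment as long as the shortest interval, and intervals cover counting error only. Merging, motif search, McNemar's test and height recovery were tested on simulated data. Python 3.11.15, numpy 2.4.6, scipy 1.17.1, pandas 2.3.3, pysam 0.24.0 and Biopython were used. Alternatives covered overlap, threshold, list length, window, motif, TSS set and left-out replicates.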

Additional observations from a re-analysis of the deposited data

Results flagged for a closer look

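Peaks on other sequences than chromosomes 1 to 22 and X, which the regions described above leave out, numbered 7 in the first siFLI1 library for ETS1. Of these, 6 were on the mitochondrial genome. The siNEG lists and siFLI1 replicate 2 held 0. No member rests on them.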

How the results depend on the processing

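Over 49 alternatives, 40 were called the same. That meant the same direction and side of the threshold, a share within its interval, or a count that moved by at most 1.5 times. For the histone differences, 9 (H3K27ac) and 8 (H3K4me3) of these alternatives, only the sign was compared. The replicate block repeats the main difference by construction, so those calls lend no support. With the strongest peaks alone, in equal number per list, the members fell to 105 and those in all 4 lists to 61, since that setting limits each list to 208 peaks. Leaving out a replicate gave 189 to 351 members and 126 to 270 regions in every remaining list, where fewer lists are required. The promoter share was 89.8% within 500 bp of a TSS, 96.7% within 5 kb and 88.3% with coding TSSs only, and 92.1% to 93.4% without 1 replicate. The ETS word exceeded its flanks by 6.76 percentage points, and by 5.11 for the GGAA core, which was not past the threshold (exact McNemar test, p = 0.406), where the cause was not tested. Without 1 replicate the difference for the ETS word was 3.97 to 8.15. The test missed the threshold without siNEG replicate 1, where the difference was the lowest, at 3.97, and fewer members remained. The histone shares cannot reach significance with 2 libraries per arm under any setting. With the replicate block the differences were 4.35 (H3K27ac) and 0.751 percentage points (H3K4me3), with an exact sign-flip p of 0.5, the smallest that 2 pairs allow. Over regions with 1 peak in every list, the fold deviations of same-numbered libraries had correlations of 0.009 (H3K27ac) and 0.004 (H3K4me3). Such correlations cannot show whether same-numbered libraries share an origin, which the labels do not give. The siFLI1 ETS1 lists count as 1 sample and give no pairs. Median summit heights over all peaks were 23.5 and 23 tags in the siNEG lists and 22 and 17 in the siFLI1 lists, and why the siNEG lists are shorter was not tested.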

Other observations

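An 8-base word was shared by many of the strongest members. It was found by counting all 8-base words within 100 bp of the summits of the 15 strongest members, so it was chosen after its values were seen and its count there carries that choice. CAGGACCT, on either strand, lay at 6 of these 15 members (among them CDCA7, the region near RNF187, TAF6, CDC40 and DNAJC5B), at 2 of the 45 members ranked next (4.44%), at 5 of the other 273 (1.83%), at 14 of the 1190 regions of the siFLI1 lists alone (1.18%) and at 1.07% of 19970 windows of the same length at a TSS of a coding gene. The region near RNF187 held it 3 times. CAMKMT and AXIN2, the holders among the 45 ranked next, are shown too, and CAMKMT held a pair. The following 30 bases of hg38 show it in capitals at some of these members, for comparison of the bases around it.
CDCA7 (chr2:173354778-173354807, plus strand): accacagcttgCAGGACCTgtgtcccaacg
RNF187 upstream (chr1:228487201-228487230, plus strand): cccaccgcggcCAGGACCTaaggatgcagt
TAF6 (chr7:100119360-100119389, minus strand): ttaggctctgcCAGGACCTgctcccacgag
CDC40 (chr6:110180370-110180399, plus strand): ttgcaatctgtCAGGACCTgggagcctctt
CAMKMT (chr2:44361936-44361965, minus strand): tcgtcccctgcCAGGACCTgccaacttctt
AXIN2 (chr17:65561548-65561577, plus strand): tactgagttgcCAGGACCTtatcaaagcgc

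Another word, AAAAGGCA, lay at 4 of the 15 strongest members, at 0 of the 45 ranked next, at 1 of the other 273 and at 1.17% of the coding TSS windows. It was chosen in the same way. What binds either word was not tested.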
